A study of Mus musculus with 28 samples.

Results

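The neuronal pentraxins are the 3 genes Nptx1, Nptx2 and Nptxr, taken by gene name from tables of 22919 genes. They were followed in nascent RNA of mouse forebrain cultures, measured by Bru-seq, in which bromouridine enters newly made RNA, an antibody pulls that RNA down, and its reads report transcription during the label. Cortical and hippocampal cells of CD1 embryos at embryonic day 18, a mixture of neurons, astrocytes and oligodendrocyte precursors, each culture pooled from several embryos, were infected on day in vitro 14 with lentivirus, either for a control hairpin (shCtrl) or for one that targets Rai1 (shRai1). On day 17 they received vehicle (water), tetrodotoxin (TTX, 1 µM), which blocks sodium channels and silences firing, or bicuculline (BIC, 20 µM), which blocks GABA-A receptors and raises network activity. Treatment lasted 4 hours, with bromouridine in the last 20 minutes. Every culture, controls included, carried a lentivirus. The 16 libraries formed 6 groups of 3, except shCtrl vehicle and shCtrl BIC, which had 2 each. By their titles these were replicates 1 and 2 of shCtrl vehicle and replicates 2 and 3 of shCtrl BIC. Any part of the replicate in the comparisons was not tested.

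Neuronal pentraxins are secreted or membrane-bound proteins with a C-terminal pentraxin domain that assemble into multimers at synapses. Nptx1 and Nptx2 (also called Narp) are secreted and Nptxr is the membrane-anchored member. The complexes bind AMPA-type glutamate receptors from the extracellular side and help to cluster them, in particular at excitatory synapses on parvalbumin interneurons. Nptx2 is known as an immediate-early gene of neurons, and its product has also been described as a ligand of the complement protein C1q.

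The values were the authors' summaries, with no value per library: 7 tables of comparisons, which give a mean normalised read count over all libraries and a log2 change with its standard error (SE), and 1 table of pooled FPKM (fragment counts scaled by gene length and depth) per condition. A gene is called where its adjusted p is below 0.05. In the authors' deposited tables Nptx1 had a mean normalised count of 1180 and Nptx2 of 1710, against a median of 107 over the 21192 genes tested. Nptxr was listed at a mean count of 0 there, so 2 of the 3 members had a test. The neuron markers were present, 6 of 6 at a mean count of at least 50 and between 24.5 and 152 FPKM in shCtrl vehicle, as were 5 of 5 astrocyte and 5 of 5 oligodendrocyte-lineage markers. Of 5 microglial markers 1 reached that count, and of 4 endothelial markers 0, with Cldn5 at 0. Rai1, the targeted gene, was not called lower in the libraries labelled shRai1: in the authors' deposited tables its log2 change was 0.16 in vehicle (SE 0.073, adjusted p 0.357), -0.12 in TTX (SE 0.064) and 0.03 in BIC (SE 0.073), both with an adjusted p of 1.00. These reads report transcription during the label and do not measure the accumulated Rai1 RNA or its protein. They therefore cannot tell whether the knockdown worked, and directions between the arms rest on the labels.

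The level of each gene was read first in the shCtrl arm, as FPKM, which is scaled by length and can be compared between genes. Nptx2, the activity-regulated secreted member, spans positions 145306756 to 145318347 of chromosome 5 as the FPKM table lists it. The submitters' processing notes name the mouse build mm9, and the table itself names none. The authors' pooled FPKM of Nptx2 was 48.7 in vehicle, with 37.5 and 59.9 as the bounds of their interval. It was 10.7 in TTX, with bounds of 7.48 and 14.0, and 109 in BIC, with bounds of 84.2 and 133. The 3 intervals did not overlap, with TTX low and BIC high. By rank among 23942 listed genes, Nptx2 moved from 1527 in vehicle to 7122 in TTX and 885 in BIC.

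Nptx1, the other secreted member, spans positions 119400033 to 119409134 of chromosome 11 in the same list. The authors' pooled FPKM for it was 31.5 in vehicle, with bounds of 24.4 and 38.6. Under TTX it was 44.8, bounded by 34.7 and 54.8, and under BIC 64.4, bounded by 49.9 and 78.9. Vehicle was the lowest of the 3 conditions, its interval overlapped that of TTX, and the interval of TTX overlapped that of BIC. The order of the secreted members therefore depended on the condition. Nptx2 was at 1.54 times the FPKM of Nptx1 in vehicle and at 1.69 times in BIC, whereas in TTX Nptx1 was at 4.17 times that of Nptx2. The vehicle intervals of the 2 genes overlapped, and those in TTX and in BIC did not.

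**Figure D1:**
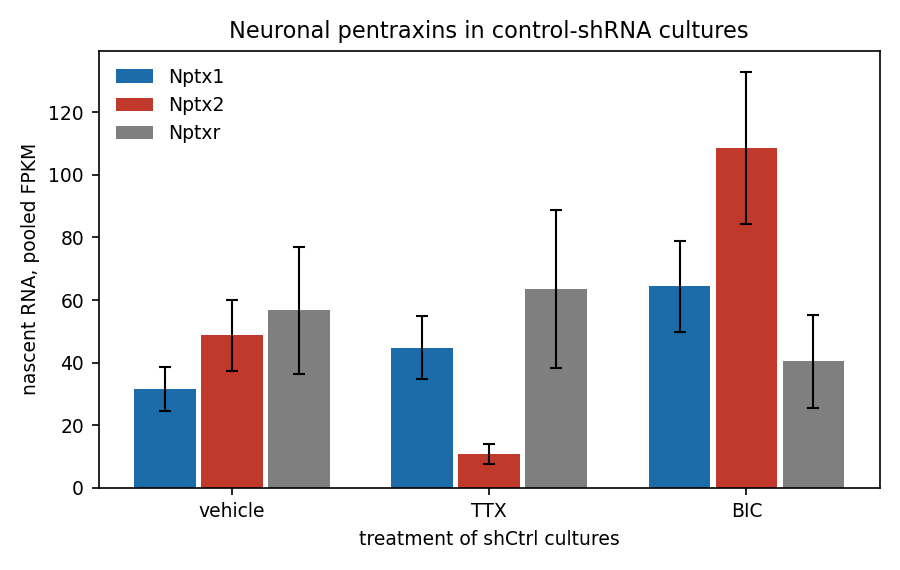
Pooled FPKM of nascent RNA (y axis) of Nptx1, Nptx2 and Nptxr in shCtrl cultures under vehicle, TTX or BIC, with bars at the authors' value and error bars at the interval given in their table. Nptx2 is at 10.7 in TTX and 109 in BIC, Nptx1 is lowest in vehicle at 31.5, and the intervals of Nptxr overlap across the 3 conditions.

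Nptxr, the membrane-anchored member, has a level only in the FPKM table. That table puts it at positions 79616781 to 79664763 of chromosome 15, the same interval that it gives for Cbx6, a Polycomb chromobox gene, and for Npcd, a transcript that joins both genes. This interval of 47983 bases has the length of Npcd in RefSeq annotation of GRCm38.p6, where Nptxr alone measures 18359 bases. The authors' pooled FPKM of Nptxr was 56.7 in vehicle, with bounds of 36.3 and 77.0. Under TTX it was 63.6, bounded by 38.3 and 88.8, and under BIC 40.4, bounded by 25.6 and 55.3. All 3 intervals overlapped, and with no count for Nptxr a difference between conditions was not tested. In the authors' table Cbx6 was at 61.8 FPKM in vehicle, 84.1 under TTX and 45.1 under BIC, the same order as Nptxr.

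In the comparison tables the reads of this locus stood only under Npcd, since Cbx6, like Nptxr, was listed at a mean count of 0. How reads over overlapping genes were counted is not given in the sources used here. Npcd had a mean normalised count of 263 and rose under TTX in shCtrl by 0.61 (SE 0.16, adjusted p 0.00139) and in shRai1 by 0.48 (SE 0.14, adjusted p 0.00501) per the authors' deposited tables. Under BIC it fell by 0.45 in shRai1 (SE 0.15, adjusted p 0.00768) and changed by -0.25 in shCtrl (SE 0.19, adjusted p 0.310) per the authors' deposited tables. The FPKM listed for Npcd in shCtrl in the authors' table ran the other way, from 1.23 under TTX through 5.45 in vehicle to 9.42 under BIC, with intervals that all reach 0. Both sets of values are uncertain for Nptxr itself, because how its reads were separated from those of the genes listed at its interval is not given.

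The secreted members moved apart under TTX. Under TTX in shCtrl Nptx2 fell by 2.43 on the log2 scale in the authors' deposited table (SE 0.13, adjusted p 4.38e-78), a level 5.38-fold lower than in vehicle. Nptx1 rose in the same libraries by 0.42 in the authors' deposited table (SE 0.10, adjusted p 0.000294), a 1.34-fold difference. Both tested members were thus called, where 19.5% of the 21192 genes tested were called in either direction, 8.59% higher and 10.9% lower. Their 95% intervals, -2.68 to -2.18 for Nptx2 and 0.22 to 0.62 for Nptx1, lie on either side of 0. Among the 12333 genes with a mean normalised count of at least 50, Nptx2 ranked 23 from the most lowered, and 9.05% had a higher log2 change than Nptx1.

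In the shRai1 arm, which shares no library with shCtrl, Nptx2 fell by 2.23 under TTX in the authors' deposited table (SE 0.11, adjusted p 4.84e-81). There 22.3% of all genes tested were called, 12.3% lower and 10% higher. Nptx1 had a log2 change of 0.21 in that arm in the authors' deposited table (SE 0.089, adjusted p 0.0604), which did not pass. Averaged over the arms, the TTX response was -2.33 for Nptx2 (SE 0.086, adjusted p 1.76e-159, Wald test with Benjamini-Hochberg adjustment) and 0.31 for Nptx1 (SE 0.067, adjusted p 2.25e-05). Of the 18241 genes in that test 17.5% were lower and 15.5% higher. Of the 5 oligodendrocyte-lineage markers 4 were lower under TTX in shCtrl and 4 higher in shRai1 in the authors' deposited tables, with median log2 changes of -0.70 and 0.47, and their part in the values of the pentraxins was not tested.

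Both secreted members rose under BIC. Under BIC in shCtrl the authors' deposited table gave a rise of 1.28 for Nptx2 (SE 0.13, adjusted p 1.93e-20) and of 1.09 for Nptx1 (SE 0.11, adjusted p 4.80e-21). These are 2.42-fold and 2.13-fold levels over vehicle, and of all genes tested 27.1% were called there, 13.7% higher. The 95% intervals of the log2 changes, 1.02 to 1.54 for Nptx2 and 0.87 to 1.31 for Nptx1, overlapped. In shRai1 the rises were 1.52 for Nptx2 (SE 0.11, adjusted p 2.83e-45) and 1.15 for Nptx1 (SE 0.087, adjusted p 4.32e-38) in the authors' deposited table, where 35.1% of all genes were called, 17.6% in the higher direction. Averaged over the arms the BIC response was 1.40 for Nptx2 (SE 0.085, adjusted p 1.48e-59) and 1.12 for Nptx1 (SE 0.071, adjusted p 6.39e-55) by the Wald test, where 22.4% of genes were higher. Of genes with a mean count of at least 50, 2.34% had a higher log2 change than Nptx2 in shCtrl and 3.43% a higher one than Nptx1.

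**Figure D2:**
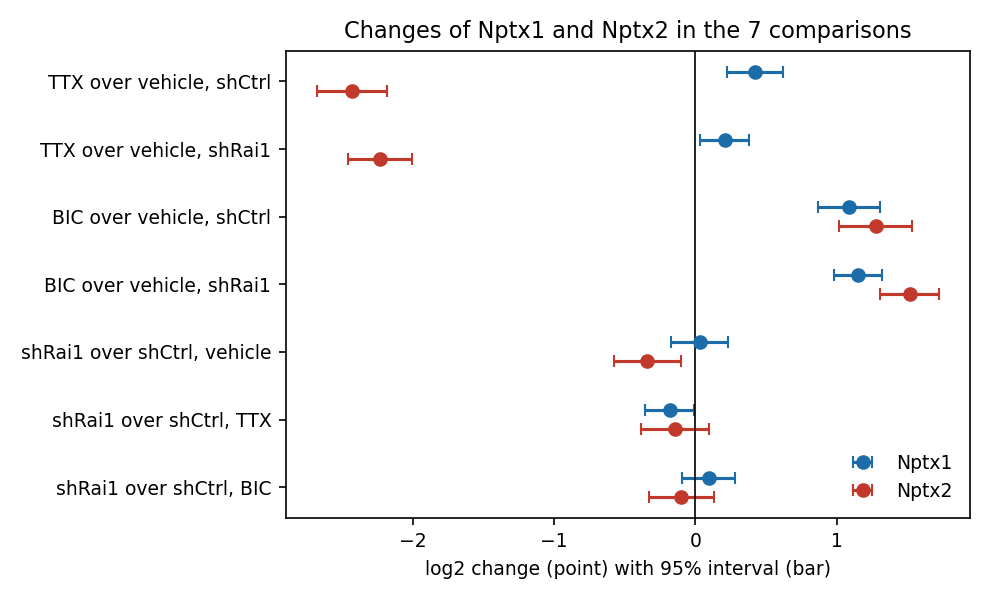
Log2 change of Nptx1 (blue) and Nptx2 (red) in each of the 7 comparisons (y axis), with points at the authors' values and bars at the 95% interval computed from their standard errors. The TTX rows show Nptx2 at -2.43 and -2.23 and Nptx1 above 0, the BIC rows show both genes between 1.09 and 1.52, and the knockdown rows lie between -0.34 and 0.09.

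BIC was then compared with TTX directly. The log2 level of Nptx2 in BIC was 3.71 above that in TTX in shCtrl (SE at most 0.18, adjusted p 1.70e-87) and 3.75 above it in shRai1 (SE at most 0.16, adjusted p 9.46e-125), by a Wald test that used the upper bound of the standard error. The difference in shRai1 is 13.4-fold. For Nptx1 the difference was 0.67 in shCtrl (SE at most 0.15, adjusted p 5.61e-05) and 0.95 in shRai1 (SE at most 0.12, adjusted p 4.32e-13). In this comparison 17.1% of 18241 genes were called higher in shCtrl and 20.3% in shRai1. The span of Nptx2 was divided between the drugs, 2.43 below vehicle and 1.28 above it in shCtrl, whereas both drugs placed Nptx1 above its vehicle level.

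The mean level of each of the 6 groups was rebuilt from the mean normalised count and the deposited log2 changes, which gives 1 fitted count per group and no spread between libraries. For Nptx2 it was 298 in shCtrl TTX, 1603 in shCtrl vehicle and 3886 in shCtrl BIC. The shRai1 groups stood at 270, 1268 and 3626 in the same order. TTX, vehicle and BIC were in this order in both arms, and each neighbouring pair of treatments differed past the threshold. For Nptx1 the fitted counts were 797 in shCtrl vehicle, 1066 in shCtrl TTX and 1696 in shCtrl BIC, and 814, 941 and 1811 in the shRai1 groups. Vehicle and TTX in shRai1 are neighbours that did not pass. The largest difference between any 2 groups was 14.4-fold for Nptx2, rank 35 of 12333 genes with a mean count of at least 50, and 2.27-fold for Nptx1, rank 1719. These group levels are relative read counts, in which fewer cells of a type and less nascent RNA per cell cannot be told apart. The summed FPKM of the 6 neuron markers in shCtrl was 456 in vehicle, 419 in TTX and 372 in BIC. Of these markers 3 were higher and 2 lower under BIC in each arm of the authors' deposited tables, with median log2 changes of 0.24 in shCtrl and 0.37 in shRai1. Of all genes 13.7% were higher and 13.4% lower there in shCtrl, and 17.6% in each direction in shRai1. Under TTX 1 was higher and 2 lower in shCtrl and 0 higher and 1 lower in shRai1 in the authors' deposited tables, with medians of -0.03 and 0.01, where 8.59% of all genes were higher and 10.9% lower in shCtrl and 10% and 12.3% in shRai1. The part of these markers in the changes of the pentraxins was not tested.

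The knockdown contrast was taken within each treatment. In vehicle, Nptx2 had a log2 change of -0.34 for shRai1 against shCtrl in the authors' deposited table (SE 0.12, 95% interval -0.57 to -0.10), with an unadjusted p of 0.00473 and an adjusted p of 0.184, so it did not pass over all genes. Of all genes tested 0.576% were called there, 0.0849% higher and 0.491% lower. The table for this comparison carries no gene names, and the rows were named by their mean counts. The change of Nptx2 was -0.14 in TTX and -0.10 in BIC, each with an SE of 0.12 and an adjusted p of 1.00 in the authors' deposited tables, where 0.0283% and 0.00944% of all genes were called. All 3 values were below 0, and their average of -0.19 (SE 0.069, unadjusted p 0.00529, adjusted p 0.975) did not pass in a test that called 0.00548% of genes. The 95% interval of this average runs from -0.33 to -0.06. In the authors' deposited tables Nptx1 had knockdown changes of 0.03 in vehicle (SE 0.10, adjusted p 0.946), of -0.18 under TTX (SE 0.088, unadjusted p 0.0405, adjusted p 1.00) and of 0.09 under BIC (SE 0.096, adjusted p 1.00). Its average over treatments was -0.02 (95% interval -0.13 to 0.09), and the 3 values differed in sign. Of the 5 oligodendrocyte-lineage markers 4 were lower in shRai1 vehicle in the authors' deposited table, with a median log2 change of -0.78. For shRai1 against shCtrl in TTX 1 was higher and 0 lower, with a median of 0.50 in the authors' deposited table. In BIC 0 were higher and 1 lower, with a median of -0.49 in the authors' deposited table. The part of these markers in the values of Nptx2 was not tested.

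Whether the knockdown altered the drug responses was tested by taking the shCtrl response from the shRai1 response. For TTX the difference was 0.20 for Nptx2 (95% interval -0.14 to 0.53, adjusted p 0.854) and -0.21 for Nptx1 (-0.48 to 0.05, adjusted p 0.706), by a Wald test. For BIC it was 0.24 for Nptx2 (-0.09 to 0.57, adjusted p 1.00) and 0.06 for Nptx1 (-0.21 to 0.34, adjusted p 1.00). None of these 4 differences passed, nor was any of their unadjusted p-values, 0.247, 0.116, 0.158 and 0.651 in that order, under 0.05. Of 18241 genes 0.943% were called for TTX and 0.0219% for BIC. The intervals leave room for a difference of up to 0.57 on the log2 scale in the response of Nptx2 to BIC, and of 0.53 in its response to TTX.

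The genes with the most similar profiles were found for each tested member by the Euclidean distance between the log2 levels of the 6 groups, among 12332 other genes with a mean normalised count of at least 50. The nearest to Nptx2 were Gpr3, a constitutively active receptor coupled to cyclic AMP (distance 0.28), Hsd17b12, a reductase of fatty acid elongation (0.35), Dusp4, a MAP kinase phosphatase (0.41), Arc, a postsynaptic regulator of AMPA receptor endocytosis (0.45), and Bdnf, a neurotrophin (0.51). Gpr3 changed by -2.23 under TTX and by 1.36 under BIC in shCtrl, from the authors' deposited tables, and Bdnf by -2.12 and 1.41. Among the 4 drug comparisons Bdnf differed most from Nptx2 under TTX in shRai1, where it changed by -1.62 against -2.23 in the authors' deposited table. Arc was the lowest of these genes under BIC in shCtrl, with a change of 0.78 against 1.28 for Nptx2 in the authors' deposited table.

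Among the 5 nearest to Nptx1 were Btbd11, a BTB-domain protein (0.13), Ppp4r4, a regulatory subunit of a protein phosphatase (0.13), Zhx2, a homeobox repressor (0.15), and Aff1, a scaffold of the elongation machinery (0.16). Ppp4r4 changed by 0.38 under TTX and by 1.18 under BIC in shCtrl, from the authors' deposited tables, and Zhx2 by 0.45 and 1.05. Ranked by Pearson correlation over the 6 groups in place of distance, 1 of the 5 nearest to Nptx1 and 0 of the 5 listed for Nptx2 were again among the nearest 5. Nptx2 itself stood 3.24 from Nptx1 on this scale, and 99.4% of the genes compared were closer to Nptx1.

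**Figure D3:**
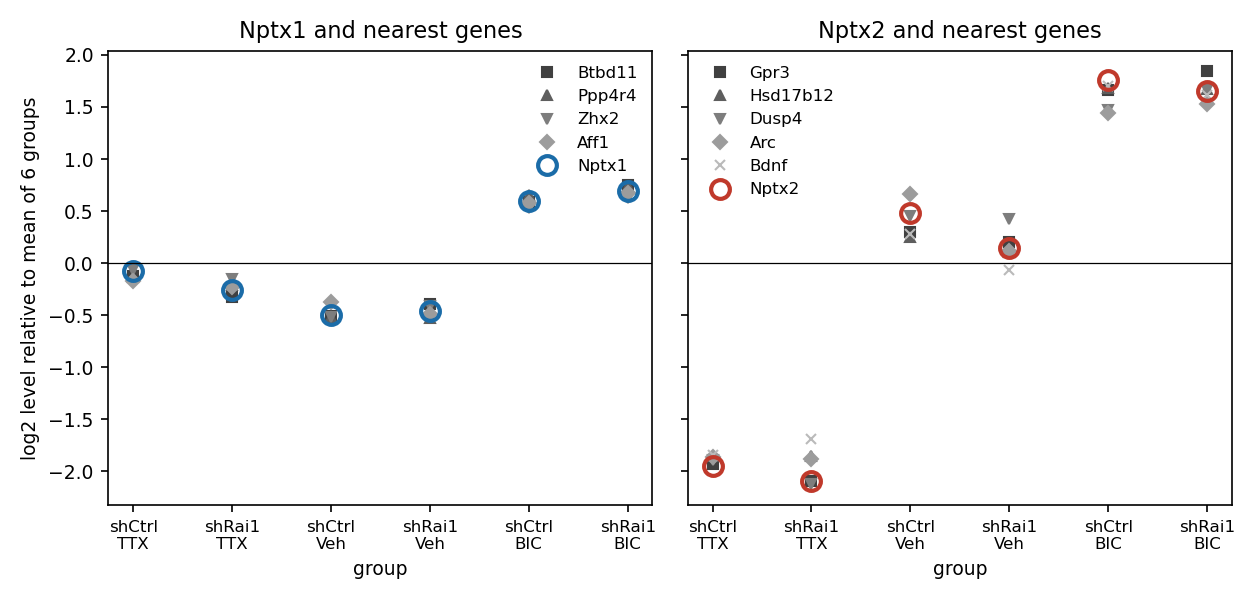
Log2 level relative to the mean of the 6 groups (y axis) in each group (x axis) for Nptx1 (left, blue circles) and Nptx2 (right, red circles), with grey symbols for 4 of the 5 nearest genes of Nptx1 and for the 5 nearest of Nptx2. Nptx2 and its neighbours are low in both TTX groups and high in both BIC groups, while Nptx1 and its neighbours are lowest in the vehicle groups, at -0.49 and -0.46 for Nptx1.

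The receptors that pentraxins cluster were examined next, in a list of 17 AMPA receptor subunits and auxiliary proteins. None of the 4 pore-forming subunits was called in the directions of Nptx2 under both drugs. Gria1 rose under TTX in shCtrl by 0.42 in the authors' deposited table (SE 0.10, adjusted p 0.000379) and had no called change under BIC (adjusted p 0.984). Its TTX change in shRai1, 0.22 in the authors' deposited table (SE 0.091, adjusted p 0.0553), did not pass. Gria2 rose under BIC by 0.55 in shCtrl (SE 0.13, adjusted p 0.000128) and by 0.62 in shRai1 (SE 0.10, adjusted p 6.43e-09) per the authors' deposited tables. Gria4, a subunit abundant in parvalbumin interneurons, fell under BIC by 0.32 in shCtrl (SE 0.12, adjusted p 0.0236) and by 0.24 in shRai1 (SE 0.095, adjusted p 0.0315) per the authors' deposited tables. Gria3 did not pass in any of the 4 drug comparisons, with changes from -0.40 to 0.28 in the authors' deposited tables.

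Across this list, 9 members were higher and 2 lower under TTX in shCtrl, from the authors' deposited table, with a median of 0.23 against 0.00 over all genes tested, of which 8.59% were called higher and 10.9% lower. In shRai1 4 were higher and 4 lower, with a median of 0.00 in the authors' deposited table, where 10% of all genes were higher and 12.3% lower. Under BIC 3 were higher and 5 lower in shCtrl and 5 higher and 7 lower in shRai1 in the authors' deposited tables, with a median of -0.08 in shRai1. Of all genes 13.7% were called higher and 13.4% lower under BIC in shCtrl, and 17.6% in each direction in shRai1. The auxiliary proteins with the largest changes under BIC were Gsg1l and Shisa7, both known to modulate AMPA receptors. Gsg1l rose by 0.72 under TTX (SE 0.087, adjusted p 4.89e-15) and fell by 1.65 under BIC (SE 0.10, adjusted p 3.06e-57) in shCtrl, from the authors' deposited tables, the reverse of Nptx2. Shisa7 rose by 0.52 under TTX (SE 0.11, adjusted p 3.76e-05) and fell by 1.14 under BIC (SE 0.14, adjusted p 1.72e-15) there, per the authors' deposited tables. In shRai1 its TTX change of 0.24 did not pass (SE 0.098, adjusted p 0.0509 in the authors' deposited table). Adjusted over genes with a mean count of at least 50, the TTX changes of Gria1 and Shisa7 in shRai1 did pass, with adjusted p of 0.0467 and 0.0429, and that of Shisa7 also passed after centring on the median of all genes (0.0491). Under TTX the largest change of the list was that of Cacng5, a transmembrane AMPA receptor regulatory protein named here with its values known, which fell by 0.75 in shCtrl (SE 0.11, adjusted p 1.19e-09) and fell by 0.85 in shRai1 (SE 0.0998, adjusted p 9.26e-16) per the authors' deposited tables. Cacng5 changed by 0.25 under BIC in both arms and was called only in shRai1 (adjusted p 0.0290, against 0.108 in shCtrl). Cnih3 also had the directions of Nptx2 in shRai1, with -0.58 under TTX and 0.27 under BIC, while its TTX change in shCtrl did not pass. Gsg1l, Shisa6 and Cnih2 were called in the reverse directions under both drugs in shRai1. Cacng3 rose in all 4 drug comparisons, by 0.43 to 0.84 in the authors' deposited tables.

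A list of 20 other secreted synapse organisers held genes on both sides. Under TTX 5 were higher and 7 lower in shCtrl, and 5 higher and 7 lower in shRai1, in the authors' deposited tables. Of all genes 8.59% were higher and 10.9% lower in shCtrl, and 10% and 12.3% in shRai1. Under BIC 8 were higher and 2 lower in shCtrl and 10 higher and 3 lower in shRai1, with medians of 0.19 and 0.30 in the authors' deposited tables, where 13.7% of all genes were higher and 13.4% lower in shCtrl and 17.6% in each direction in shRai1. Lgi2, a relative of the epilepsy gene Lgi1, fell by 1.76 under TTX in shCtrl (SE 0.14, adjusted p 1.49e-34) and rose by 0.45 under BIC (SE 0.14, adjusted p 0.00727) per the authors' deposited tables. C1ql3, a C1q-like adhesion ligand, fell by 1.14 under TTX (SE 0.18, adjusted p 2.17e-09) and rose by 2.33 under BIC (SE 0.17, adjusted p 6.34e-43) in shCtrl, from the authors' deposited tables. Olfm3, an olfactomedin, fell by 1.04 (SE 0.22, adjusted p 2.22e-05) and rose by 0.88 (SE 0.23, adjusted p 0.000797) in the same 2 comparisons of the authors' deposited tables. These 3 genes thus moved in the directions of Nptx2, and the sizes of their responses were not tested against it.

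Other organisers rose mainly under BIC. Thbs1, a thrombospondin, rose by 2.73 under BIC (SE 0.13, adjusted p 5.35e-94) and fell by 0.33 under TTX (SE 0.13, adjusted p 0.0438) in shCtrl, from the authors' deposited tables. C1ql2 rose by 1.60 (SE 0.27, adjusted p 5.98e-08) and Cbln2, a cerebellin, by 1.35 (SE 0.26, adjusted p 1.95e-06) under BIC in shCtrl, from the authors' deposited table. Their TTX changes in shCtrl, -0.24 for C1ql2 and -0.29 for Cbln2, did not pass (adjusted p 0.595 and 0.476 in the authors' deposited table). The TTX call of Thbs1 in shCtrl was lost when every gene with a p-value entered the adjustment (adjusted p 0.0596). Further members, named with their values known, went the other way from Nptx2 under TTX. Lgi3 rose by 1.15 (SE 0.26, adjusted p 7.12e-05) and C1ql1 by 1.02 (SE 0.30, adjusted p 0.00350) under TTX in shCtrl, from the authors' deposited table. Cbln1, another cerebellin, rose by 0.87 under TTX (SE 0.23, adjusted p 0.00113) and fell by 0.86 under BIC (SE 0.27, adjusted p 0.00674) in shCtrl, from the authors' deposited tables, the reverse of Nptx2.

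The list of activity-regulated comparison genes, chosen with their behaviour in these data known, gives the scale of the Nptx2 response. All 12 were lower under TTX in both arms in the authors' deposited tables, with medians of -2.24 in shCtrl and -1.83 in shRai1, where 10.9% and 12.3% of all genes were lower. Under BIC 8 were higher and 1 lower in shCtrl and 10 higher and 1 lower in shRai1, with medians of 0.67 and 1.37 in the authors' deposited tables. Of all genes 13.7% were higher and 13.4% lower under BIC in shCtrl, and 17.6% in each direction in shRai1. Nptx2, at -2.43 and 1.28 in shCtrl, was beyond both medians of that arm. Not every member had the directions of Nptx2. Egr1 fell by 2.35 under TTX (SE 0.13, adjusted p 3.58e-68) and fell by 0.91 under BIC (SE 0.15, adjusted p 5.96e-09) in shCtrl per the authors' deposited tables. Fos, Npas4 and Nr4a1 fell under TTX there and had no called BIC change, at 0.42, 0.54 and -0.14 in the authors' deposited table. Inhba did have the directions of Nptx2 in shCtrl, with a fall of 1.25 (SE 0.24, adjusted p 1.55e-06) and a rise of 4.13 (SE 0.24, adjusted p 9.70e-64) per the authors' deposited tables.

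Both drug responses of Vgf, Scg2, Homer1 and Ptgs2 also had the direction of those of Nptx2, as did those of Arc, Bdnf and Ntrk2. Vgf, a secreted neuropeptide precursor, changed by -1.86 and 0.94 under TTX and BIC in shCtrl, and Scg2, a granin, by -2.06 and 1.75 in the authors' deposited tables. Homer1, a postsynaptic scaffold, changed by -1.80 and 0.25, and Ptgs2, an inducible cyclooxygenase, by -3.95 and 2.28 in the authors' deposited tables. In the knockdown in vehicle 4 of the 12, Egr1, Homer1, Ptgs2 and Scg2, were lower and 0 higher in the authors' deposited table, with a median of -0.54, beside the -0.34 of Nptx2, which did not pass. Of all genes 0.491% were lower there and 0.0849% higher, and 4 of the 5 oligodendrocyte-lineage markers were lower with a median of -0.78, whose part in these values was not tested. For the knockdown in TTX and in BIC 0 of the 12 were called, with medians of 0.07 and 0.05 in the authors' deposited tables. Nptx2 had changes of -0.14 and -0.10 in those comparisons of the authors' deposited tables, where 0.0283% and 0.00944% of all genes were called.

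**Figure D4:**
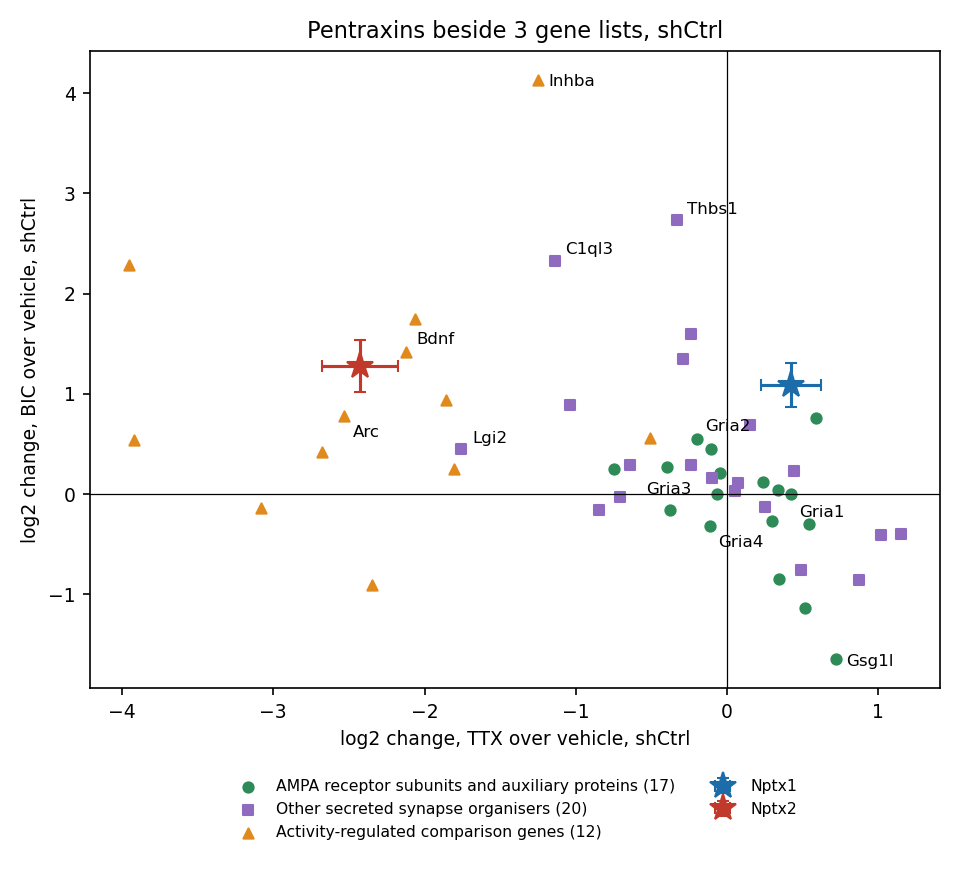
Log2 change under TTX (x axis) against that under BIC (y axis), both over vehicle in shCtrl, for Nptx1 and Nptx2 (stars with 95% intervals) and the genes of 3 lists (symbols, numbers of genes in brackets). Both axes use the same vehicle libraries. Nptx2, at -2.43 and 1.28, lies among the activity-regulated genes, while Nptx1, at 0.42 and 1.09, lies to the right of 0 on the TTX axis.

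The remaining lists were small. Of 6 cleavage and complement partners 3 had an adjusted p under the drugs, and 1 of these was lower and 0 higher in each of the 4 drug comparisons, each named with its value already known. Adam17, the protease known to cleave Nptxr, changed by -0.54 under TTX in shCtrl (adjusted p 2.63e-05) and by -0.08 in shRai1 (adjusted p 0.613) per the authors' deposited tables. Adam10, a related protease, fell by 0.28 in shCtrl (SE 0.11, adjusted p 0.0240) and fell by 0.20 in shRai1 (SE 0.083, adjusted p 0.0343) under BIC, per the authors' deposited tables. Timp3, a metalloprotease inhibitor, fell by 0.24 under TTX in shRai1 in the authors' deposited table (SE 0.085, adjusted p 0.0182). Of all genes 10.9% and 12.3% were lower under TTX in shCtrl and shRai1, and 13.4% and 17.6% under BIC. The complement genes C1qa, C1qb and C1qc had mean counts of at most 0.959 and no adjusted p in the drug comparisons. Of 6 other genes with a pentraxin domain, 5 had a p-value, but only 3 had an adjusted p under TTX in either arm and under BIC in shCtrl, so that the other two could not be called. Of these 3, 0 were called in those comparisons of the authors' deposited tables, where 19.5%, 22.3% and 27.1% of all genes were called under TTX in shCtrl, TTX in shRai1 and BIC in shCtrl. In the DESeq2 tables the unadjusted p was under 0.05 for 0 of the 5 under TTX in shCtrl and for 0 under BIC in shCtrl. Under TTX in shRai1 it was so for 1, Ptx4, with a log2 change of 0.98 in the authors' deposited table (SE 0.42, unadjusted p 0.0199), named after its value was seen and without an adjusted p there. Under BIC in shRai1 4 had an adjusted p and 1 was called, Ptx3, named after its value was seen, which rose by 0.83 in the authors' deposited table (adjusted p 0.00351), where 35.1% of all genes were called and 17.6% were higher.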

How the data were processed

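Bru-seq libraries of 16 cultures in 6 groups were used, and 12 ChIP-seq samples were not analysed here. The members and gene lists were chosen with earlier results of these data known. Reads were processed with TopHat2 2.1.0, Bowtie, Bowtie2 2.2.6 and DESeq2 on build mm9, per the submitters' processing notes, which give no role or order. The authors deposited 7 tables with the mean normalised count of each gene (a signal scaled between libraries), a log2 change, its SE, the Wald statistic (a score) and p-values with and without Benjamini-Hochberg adjustment. The authors also deposited FPKM per condition with bounds, pooled over replicates. The FPKM columns of the knockdown arm were not used as named treatments, because their values do not follow the comparison tables. No value per library was used here, so depth per library is unknown, and p-values measure the spread in the authors' model.

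The table of the knockdown in vehicle has no gene names: 20107 rows were named by a mean count that only 1 gene has, and 1085 were not. The log2 changes of the 7 tables closed to within 1e-09. The 7 combined contrasts were computed from the deposited log2 changes and SEs with a two-sided Wald test, Benjamini-Hochberg adjusted over the 18241 named genes whose mean FPKM reached 0.1. BIC against TTX used the upper bound of the SE. The intervals are 95% Wald intervals. These steps were tested on simulated data. Named genes were the members, Rai1, the 4 Gria genes, up to 6 genes per list with an adjusted p under 0.05 and a log2 change of at least 1 in size under a drug, and the 5 nearest genes in profile, of which 1 is not reported here. Npcd and Cbx6, which share the interval of Nptxr, and Adam10, Adam17, Timp3, Ptx3, Ptx4, Cacng5, Lgi3, C1ql1 and Cbln1 fall outside this rule and were named with their values known. The same holds for Cacng3, Cnih2, Cnih3, Shisa6, Gpc4, Olfm2, Fos, Npas4, Nr4a1 and Ntrk2. Other adjustments, a threshold of 0.01, centring on the median and FPKM ratios with a pseudocount of 0.1 were tried. Python 3.11.15, pandas 2.3.3 and scipy 1.17.1 were used.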

Additional observations from a re-analysis of the deposited data

Results flagged for a closer look

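Neither tested pentraxin passed the test of a difference between the arms in its drug response. Of the 12 activity-regulated comparison genes 3 passed, by a Wald test of the shRai1 response less the shCtrl response. Of 18241 genes 0.943% passed for TTX and 0.0219% for BIC. For TTX the difference was 0.51 for Homer1 (SE 0.095, adjusted p 0.000118), 1.50 for Ptgs2 (SE 0.28, adjusted p 9.68e-05) and 0.85 for Scg2 (SE 0.20, adjusted p 0.00921). For BIC it was 0.85 for Scg2 (SE 0.19, adjusted p 0.0308). All 3 genes were lower in shRai1 vehicle, a group that enters each of these differences, with log2 changes of -0.40 for Homer1, -0.95 for Ptgs2 and -0.72 for Scg2 in the authors' deposited table. The 5 oligodendrocyte-lineage markers had median log2 changes of -0.70 under TTX in shCtrl, 0.47 under TTX in shRai1 and -0.78 in shRai1 vehicle against shCtrl vehicle in the authors' deposited tables, the last with 4 of 5 lower, and their part in these differences was not tested.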

How the results depend on the processing

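The 14 contrasts of Nptx1 and Nptx2 kept their direction and their side of the threshold in all 112 combinations of gene, contrast and setting run. The closest was Nptx1 under TTX in shRai1, with an adjusted p of 0.0512 to 0.0821. Settings that change only the adjustment or the threshold keep each log2 change, so they could not reverse a direction. Centring moved little: the median log2 change under BIC in shCtrl was -0.001 over all genes and -0.04 over genes with a mean count of at least 50. No model was refitted, so stability to the counting or the fit was not tested. Counts over all genes moved more. With every gene that has a p-value in the adjustment, the knockdown in vehicle had 81 genes in place of 122. At a threshold of 0.01 the knockdown in vehicle had 35, the knockdown in TTX 2 in place of 6, the knockdown in BIC 1 in place of 2 and the TTX difference between arms 62 in place of 172. The BIC difference between arms had 0 in place of 4 by the Wald test, with 552 of the 18241 genes at an unadjusted p under 0.05. Adjusted over genes with a mean count of at least 50, the knockdown in BIC had 5. The pooled FPKM gave -2.17 for Nptx2 in TTX over vehicle in shCtrl, against -2.43 in the authors' deposited table, and the cause was not tested. No paired analysis was possible because the files hold no value per library, and leaving out replicates was not run for the same reason. The groups shCtrl vehicle and shCtrl BIC had 2 libraries each, and Nptxr had no count and so no test.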

Other observations

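The FPKM columns of the knockdown arm, under the names they carry, gave Nptx2 at 8.25 in KD_Unt, 101 in KD_TTX and 39.7 in KD_Bic in the authors' table. For Nptx1 the authors' table gave 41.0, 65.1 and 32.2 in the same order. In the comparison tables the shRai1 order of Nptx2 was TTX, vehicle, BIC from low to high, so these names and those tables do not match.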
